A study of Mus musculus with 6 samples.

Results

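Genes for antioxidant enzymes, glutathione metabolism and metallothioneins were followed in disome profiles of mouse liver. The group was set by name, by a list of 10 Ensembl identifiers paired with the symbols Cat, Sod1, Sod2, Prdx1, Gclc, Gsta3, Gstm1, Gstp1, Mt1 and Mt2. The deposited tables list 8941 genes by identifier alone, and 9 of the 10 were among them. The identifier of Gstp1 was not listed, so Gstp1 was not analysed here. The livers came from male C57BL/6JRj mice of 11 to 12 weeks, kept under 12 h of light and 12 h of dark. Zeitgeber time (ZT) counts the hours since the lights came on, and livers were taken at ZT0, ZT2 and ZT12. Each time point has 2 libraries, and each library pools the livers of 2 mice, so p-values measure the spread between pools. The labels name no altered allele and no agent for any group. A disome footprint is the RNA fragment that a pair of adjoining ribosomes shields from nuclease, and the tables give its abundance per gene as RPKM, reads per kilobase scaled by library.

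Superoxide dismutases turn superoxide into hydrogen peroxide, which catalase and the peroxiredoxins then break down. Glutathione is built from amino acids, with glutamate-cysteine ligase as the limiting step, and glutathione S-transferases attach it to reactive compounds. Metallothioneins are small cysteine-rich proteins that bind zinc and copper, and their genes respond to metals and to glucocorticoids. Liver is rich in all of these proteins because it handles peroxides, drugs and metals for the whole body. A disome level reflects how much messenger RNA there is, how often it is translated and how often its ribosomes meet, and these parts were not separated here. In bulk liver, fewer cells of a type and less RNA per cell cannot be told apart. Because the tables give no symbols, liver markers and the other genes of these pathways could not be looked up, and the tissue was not checked.

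Whole reads could be recovered from the steps of the RPKM values, and they totalled 6346387 to 12322651 per library. The ZT2 libraries were the least alike: the median difference between the replicates over all tested genes was 0.40 on the log2 scale at ZT2, against 0.19 at ZT0 and 0.27 at ZT12. Genes listed at 0 numbered 97 and 250 in the ZT2 libraries, and 4 to 52 in the others. The 9 genes held 2.15% ± 0.146 (SD, n = 6) of all recovered reads, although they are 0.101% of the genes listed. Their share was 2.11% and 2.07% in the ZT0 libraries, 2.44% and 2.03% in those of ZT2, and 2.12% and 2.15% in those of ZT12. The 95% exact Clopper-Pearson interval was 2.43% to 2.45% in ZT2 replicate 1, and it covers counting error only. That library was the highest, and the other 5 lay close together.

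The 9 genes spanned a wide range of disome density. Gstm1, Gsta3 and Cat had the highest means, at 6957 RPKM ± 2375, 5944 RPKM ± 1124 and 5330 RPKM ± 597 (SD, n = 6), which ranked 19, 23 and 26 of 8941 genes. Prdx1 followed with 3726 RPKM ± 235 and Sod1 with 2208 RPKM ± 409 (SD, n = 6), so that 5 of the 9 were above 1000 RPKM, a level that 126 listed genes reached. Sod2 had 605.7 RPKM ± 79.2 and Gclc 90.6 RPKM ± 16.1 (SD, n = 6). Mt1 and Mt2 were the lowest, with 40.5 RPKM ± 27.9 and 26.5 RPKM ± 12.6 (SD, n = 6), which were still 5.42 and 3.55 times the median gene, at 7.47 RPKM. The ranges over the libraries overlapped between Gstm1 and Gsta3, between Gsta3 and Cat, between Gclc and Mt1, and between Mt1 and Mt2. This order, and every ratio between genes given here, rests on the gene lengths behind the authors' RPKM values. The length recovered for Mt1, 266 nucleotides, is not a multiple of 3, as 95.2% of the recovered lengths are. It may therefore not be that of 1 coding sequence. A multiple of 3 does not settle this either. The lengths of Gstm1, 759 nucleotides, and Mt2, 228, may likewise not be those of 1 coding sequence. Which gene models were used is not given in the sources used here. For the other neighbours in this order, from Cat down to Gclc, no library of the higher gene reached a library of the lower one.

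**Figure D1:**
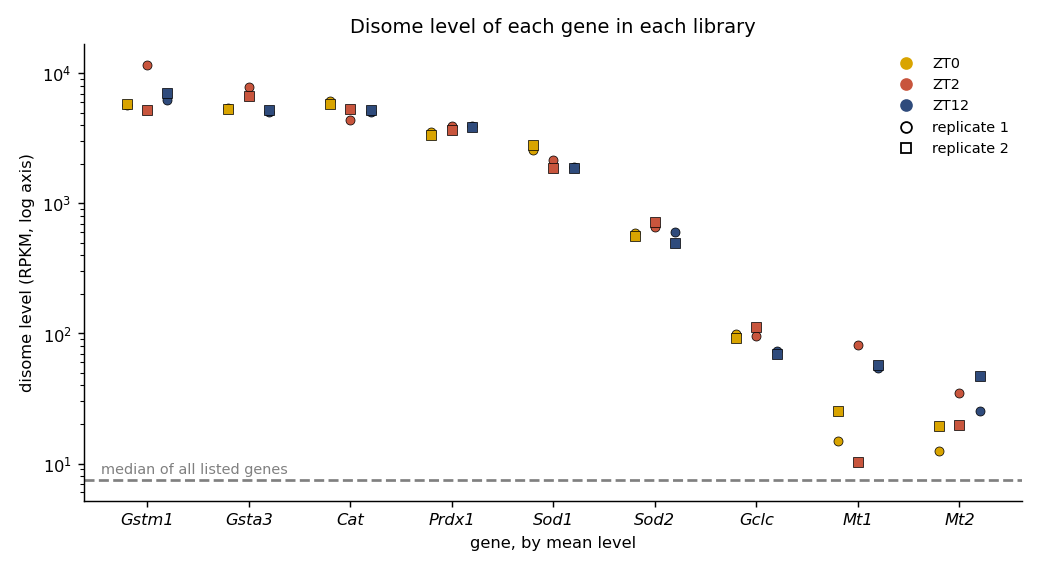
Disome level in RPKM on a log axis for the 9 genes, ordered by mean level. Each point is 1 library, coloured by time point, with circles for replicate 1 and squares for replicate 2, and the dashed line is the median of all listed genes at 7.47 RPKM. The spread over all the genes is far larger than the spread between the libraries of a gene, although some neighbouring genes overlap. Mt1 has the widest spread between libraries, with its ZT2 libraries at 81.0 and 10.2 RPKM.

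The first question was whether any of these genes differed between time points. None passed the test in any comparison (0 of 9 each time; limma on log2(RPKM + 1), Benjamini-Hochberg adjustment over the 8355 genes tested, threshold 0.05). Of all tested genes, 0.0239% were called at ZT2 against ZT0, 0.946% at ZT12 against ZT0 and 2.06% at ZT12 against ZT2. An F test over the 3 time points together called 1.26%. Among the 9, limma's smallest adjusted p was 0.33 (Sod1) between ZT2 and ZT0, 0.22 (Sod1) between ZT12 and ZT0, 0.17 (Gclc) between ZT12 and ZT2, and 0.22 (Sod1) in the F test. At an unadjusted p of 0.05, limma counted 2, 3 and 2 of the 9 in these comparisons in turn, against 13.7%, 14.5% and 19.2% of all genes, and 3 of the 9 in the F test, against 18.6%. On the log2 scale, the 9 had a median change of 0.26 at ZT2 over ZT0, where all tested genes had -0.04. At ZT12 over ZT0 the medians were -0.07 and -0.01, and at ZT12 over ZT2 they were -0.09 and 0.03. A p that misses the threshold does not show equal levels: the 95% interval of Sod1 at ZT12 over ZT0, for example, was -0.89 to -0.13.

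**Figure D2:**
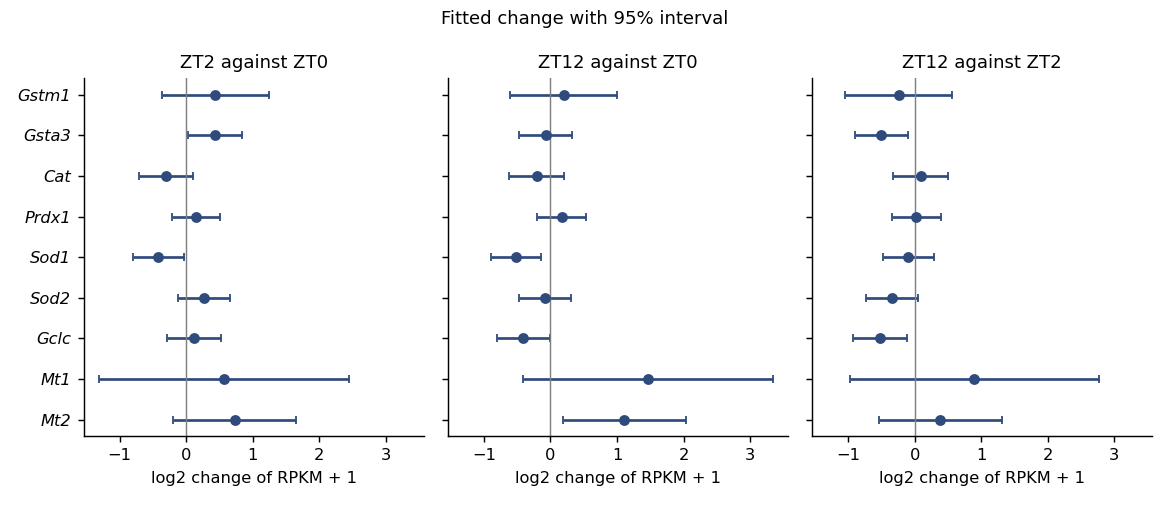
Fitted log2 change of RPKM + 1 with its 95% interval from limma for each of the 9 genes in the 3 comparisons, with the later time point over the earlier one. The intervals are narrowest for Prdx1 and widest for Mt1, and none of the 27 changes passed the test after adjustment over all genes.

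Cat (ENSMUSG00000027187) encodes catalase, which breaks down hydrogen peroxide in peroxisomes. At ZT0 its libraries gave 6129 and 5799 RPKM, at ZT2 4410 and 5323 RPKM, and at ZT12 5067 and 5252 RPKM. Both ZT0 libraries were above the other 4, by a margin of 1.09 times between the nearest libraries. The log2 change at ZT2 over ZT0 was -0.30 ± 0.17 (SE), for which limma gave an adjusted p of 0.48, and -0.16 without ZT2 replicate 1. At ZT12 over ZT0 it was -0.21 ± 0.17 (SE), with 0.64 as limma's adjusted p. Each value rested on 43036 to 104928 reads over a recovered gene length of 1581 nucleotides. Catalase alone took 0.678% to 0.949% of all recovered reads in a library.

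Prdx1 (ENSMUSG00000028691), for the cytosolic peroxiredoxin 1, which reduces peroxides with electrons from thioredoxin, was the steadiest of the 9, with a coefficient of variation of 6.30% over the 6 libraries. The ZT0 libraries gave 3558 and 3358 RPKM, the ZT2 libraries 3957 and 3701 RPKM, and the ZT12 libraries 3931 and 3850 RPKM. The ZT0 libraries were below the other 4, and the highest library was 1.18 times the lowest. The log2 change for ZT12 against ZT0 was 0.17, with a 95% interval of -0.20 to 0.54 and a limma adjusted p of 0.68. The ratio of Cat to Prdx1 within a library was 1.72 and 1.73 in the ZT0 libraries, above the 1.11 and 1.44 of ZT2 and the 1.29 and 1.36 of ZT12.

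Sod1 (ENSMUSG00000022982) encodes the copper- and zinc-dependent superoxide dismutase of the cytosol. Its libraries gave 2581 and 2830 RPKM for ZT0, 2174 and 1878 RPKM for ZT2, and 1900 and 1884 RPKM for ZT12. Both ZT0 libraries were above the other 4, with 1.19 times between the nearest libraries. The mean was 1892 RPKM ± 11.2 at ZT12 and 2705 RPKM ± 176 at ZT0 (SD, n = 2 each), a ratio of 0.699. On the log2 scale this was -0.51 ± 0.16 (SE), where limma had an unadjusted p of 0.015 and an adjusted p of 0.22. At ZT2 over ZT0 it was -0.42 ± 0.16 (SE), where the adjusted p from limma was 0.33. Neither passed the test. No library overlapped in either comparison, as was so for 54.4% of tested genes at ZT12 against ZT0 and 46.4% at ZT2 against ZT0.

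Sod2 (ENSMUSG00000006818), for the manganese superoxide dismutase of mitochondria, measured 587 and 565 RPKM in the ZT0 libraries, 660 and 723 RPKM in the ZT2 libraries, and 606 and 493 RPKM in the ZT12 libraries. Here the ZT2 libraries were above the other 4, by 1.09 times. At ZT12 over ZT2 the log2 difference was -0.34 ± 0.17 (SE), with limma's adjusted p at 0.32, and -0.19 without ZT12 replicate 2. At ZT12 over ZT0 it was -0.08, and 0.02 after scaling all libraries to an equal total. The ratio of Sod1 to Sod2 was 4.39 and 5.01 in the ZT0 libraries, 3.29 and 2.60 in those of ZT2, and 3.14 and 3.82 in those of ZT12. The disome level of Sod1 per gene length was thus the higher of the pair in every library, by most at ZT0.

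Gclc (ENSMUSG00000032350) encodes the catalytic subunit of glutamate-cysteine ligase, which makes the first bond of glutathione. For ZT0 its libraries gave 99.9 and 91.5 RPKM, for ZT2 95.9 and 112.4 RPKM, and for ZT12 73.8 and 70.1 RPKM. Both ZT12 libraries were below the other 4, and the higher of them was 0.807 times the nearest other library. The mean was 72.0 RPKM ± 2.63 at ZT12 and 104.1 RPKM ± 11.7 at ZT2 (SD, n = 2 each), a ratio of 0.691. The log2 difference of -0.52 ± 0.17 (SE) had a limma adjusted p of 0.17. Against ZT0 it was -0.41 ± 0.17 (SE), and limma's adjusted p was 0.34.

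Gsta3 (ENSMUSG00000025934) and Gstm1 (ENSMUSG00000058135) belong to the alpha and mu classes of glutathione S-transferases, cytosolic enzymes that conjugate glutathione to toxins and drugs. Gsta3 gave 5462 and 5322 RPKM in the ZT0 libraries, 7890 and 6716 RPKM in the ZT2 libraries, and 5062 and 5210 RPKM in the ZT12 libraries. Both ZT2 libraries were above the other 4, with 1.23 times between the nearest libraries. At ZT2 over ZT0 the log2 difference was 0.43 ± 0.17 (SE; limma adjusted p of 0.34), and at ZT12 over ZT2 it was -0.50 ± 0.17 (SE; limma adjusted p of 0.18). At ZT12 over ZT0 it was -0.07, and 0.03 after scaling all libraries to an equal total.

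Gstm1 measured 5705 and 5845 RPKM for ZT0, 11653 and 5264 RPKM for ZT2, and 6270 and 7007 RPKM for ZT12. ZT2 replicate 1 was the highest of the 6 libraries and ZT2 replicate 2 the lowest, so the mean at ZT2 does not stand for either. The difference between these replicates, 1.15 on the log2 scale, was at or above that of 89.4% of the tested genes. These libraries held 54600 and 30801 reads of Gstm1. At ZT2 over ZT0 the log2 difference was 0.44 ± 0.34 (SE; limma adjusted p of 0.60), -0.13 without ZT2 replicate 1 and 1.01 without ZT2 replicate 2. Gsta3 differed between the same libraries by 0.23, so the ratio of Gstm1 to Gsta3 was 1.48 in ZT2 replicate 1 and 0.784 in ZT2 replicate 2, with 1.04 to 1.35 in the other 4. RefSeq lists 7 Gstm genes, all on chromosome 3, with Gstm2 and Gstm4 next to Gstm1, and how reads that match several of them were counted is not given in the sources used here.

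**Figure D3:**
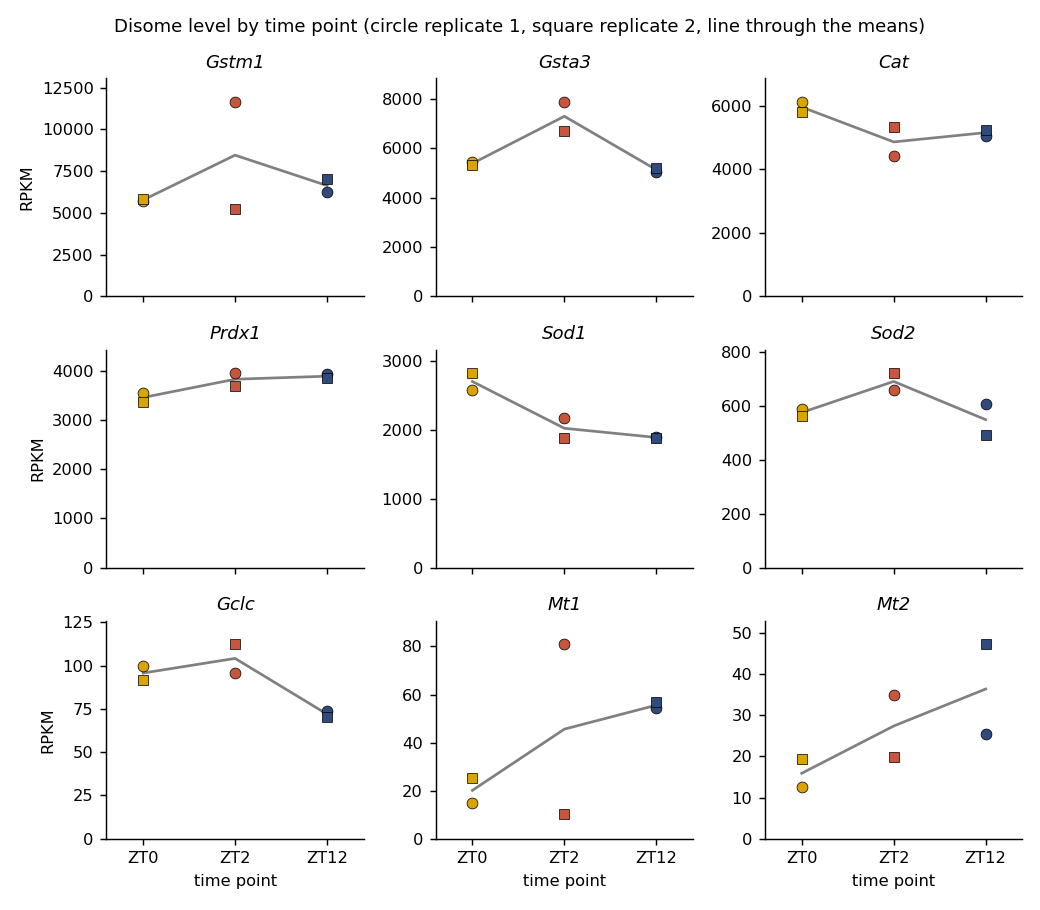
Disome level in RPKM at ZT0, ZT2 and ZT12, 1 panel per gene with its own axis from 0. Circles are replicate 1, squares replicate 2, and the grey line joins the means of 2 libraries. Sod1 and Cat are highest at ZT0, Gsta3 and Sod2 at ZT2, and Gclc is lowest at ZT12, while the ZT2 libraries of Gstm1 and Mt1 lie far apart.

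Mt1 (ENSMUSG00000031765) and Mt2 (ENSMUSG00000031762) encode the main metallothioneins of liver and are neighbours on chromosome 8. They had the largest changes of the group for ZT12 against ZT0, and the fewest reads. Mt1 gave 14.9 and 25.4 RPKM for ZT0, 81.0 and 10.2 RPKM for ZT2, and 54.2 and 56.9 RPKM for ZT12. Behind these values stood 28 and 52 reads in the ZT0 libraries, 133 and 21 in the ZT2 libraries, and 189 and 187 in the ZT12 libraries. Both ZT12 libraries were above both ZT0 libraries, while ZT2 held the highest and the lowest library of all. The exact Poisson 95% intervals of the ZT2 replicates, 67.8 to 96.0 and 6.34 to 15.7 RPKM, did not overlap. Such intervals cover counting error only, not the spread between pools of livers. Their difference of 2.87 on the log2 scale was at or above that of 99.6% of tested genes.

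The mean of Mt1 was 55.6 RPKM ± 1.91 at ZT12 and 20.1 RPKM ± 7.37 at ZT0 (SD, n = 2 each), a ratio of 2.76. The log2 difference was 1.46 ± 0.80 (SE; limma adjusted p of 0.46), and the fit estimates 1 spread per gene over all 6 libraries. With only the 4 libraries compared in the fit, the same log2 change of 1.46 had a limma adjusted p of 0.037 and passed the test. That fit leaves out the ZT2 replicates, which lay far apart. It called 282 of the 8355 tested genes, and the main fit called 79. Without ZT2 replicate 1, or without ZT2 replicate 2, the log2 change was again 1.46. A single ZT2 library adds nothing to the estimate of the spread. These fits therefore rest on the same 4 libraries and are not separate support. Over 15 alternative settings the log2 change was 1.10 to 1.83. At ZT12 over ZT2 the log2 difference was 0.90, but it was 2.33 without ZT2 replicate 1, with a limma adjusted p of 0.018, and -0.54 without ZT2 replicate 2.

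Mt2 measured 12.4 and 19.3 RPKM in the ZT0 libraries, 34.8 and 19.9 RPKM in the ZT2 libraries, and 25.4 and 47.2 RPKM in the ZT12 libraries, from 20 to 133 reads. The ZT0 libraries were below the other 4, and the higher of them was 0.971 times the nearest other library, and the replicates of ZT12 lay far apart. The mean was 36.3 RPKM ± 15.4 at ZT12 and 15.9 RPKM ± 4.88 at ZT0 (SD, n = 2 each), a ratio of 2.29. The log2 difference was 1.11 ± 0.39 (SE), where limma had an unadjusted p of 0.024 and an adjusted p of 0.26. It was 0.68 without ZT12 replicate 2 and 1.54 without ZT12 replicate 1. The ratio of Mt1 to Mt2 was 1.2 and 1.31 in the ZT0 libraries, 2.33 and 0.514 in those of ZT2, and 2.13 and 1.21 in those of ZT12, so the time points overlapped. The gene lengths recovered from the files were 266 nucleotides for Mt1 and 228 for Mt2, the shortest of the 9.

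**Figure D4:**
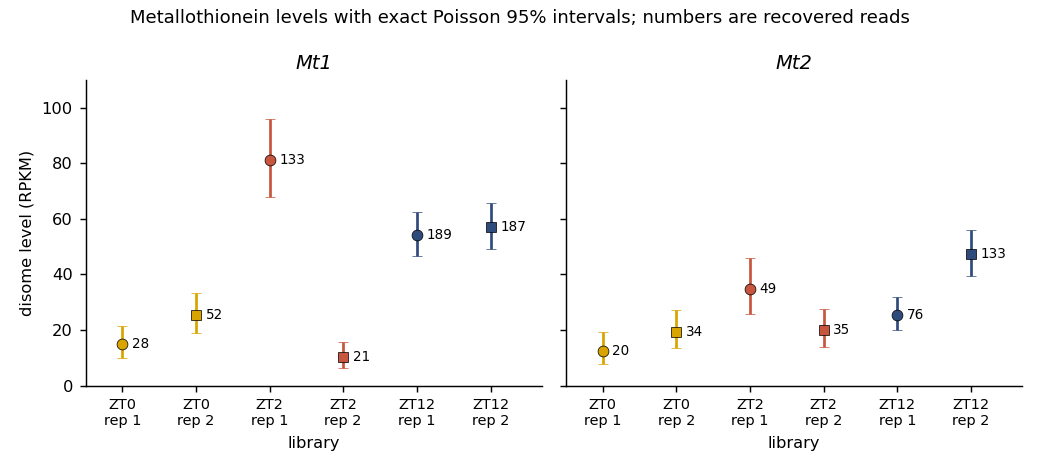
Disome level of Mt1 and Mt2 in RPKM in each library, with exact Poisson 95% intervals that cover counting error only and the recovered reads printed beside each point. Both ZT12 libraries are above both ZT0 libraries for each gene, and the ZT2 replicates of Mt1, with 133 and 21 reads, lie on either side of all the others.

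The spread between replicates set these genes apart from one another. The enzyme genes lay closer than the median gene at the same time point, except Gstm1 at ZT2 and Sod2 at ZT12. Prdx1 differed between replicates by 0.08, 0.10 and 0.03 on the log2 scale at ZT0, ZT2 and ZT12. The metallothioneins differed by more, with 0.73, 2.87 and 0.07 for Mt1 and 0.60, 0.78 and 0.87 for Mt2. Mt1 at ZT12 was the 1 close pair among them. Mean reads were far fewer for the metallothioneins than for the enzymes, and the part of depth in this spread was not tested.

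**Figure D5:**
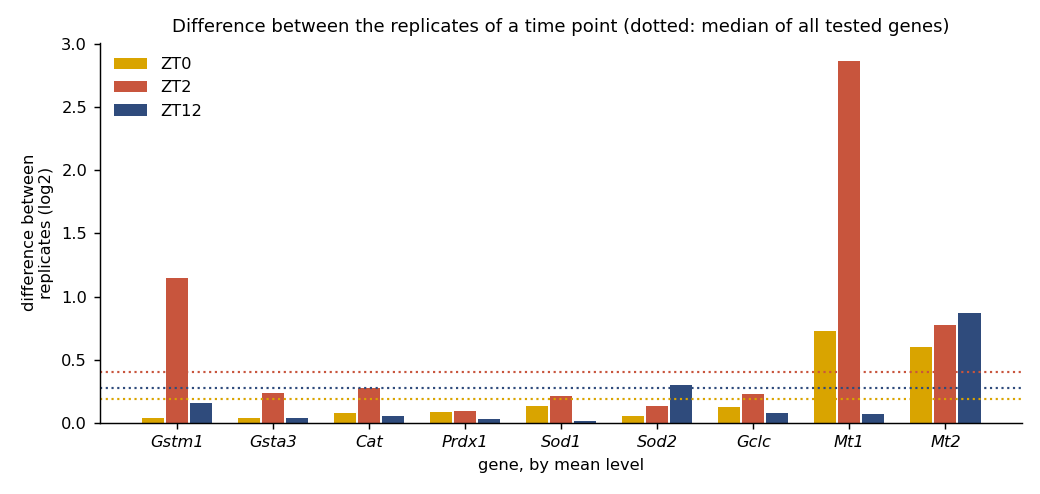
Absolute log2 difference of RPKM + 1 between the replicates of each time point, as bars for ZT0, ZT2 and ZT12 in each of the 9 genes. Dotted lines are the medians of all tested genes at 0.19, 0.40 and 0.27. Gstm1 and Mt1 stand out at ZT2, with 1.15 and 2.87, and Mt2 is above the line at every time point.

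Non-overlapping libraries were common in the whole table and were read against that. Between ZT2 and ZT0, 6 of the 9 genes had no overlap, where 46.4% of tested genes had none: Sod2, Prdx1, Gsta3 and Mt2 were higher at ZT2 (21.5% of tested genes), and Cat and Sod1 were lower (24.9%). Between ZT12 and ZT0 it was 8 of 9, with 54.4% of tested genes. Prdx1, Gstm1, Mt1 and Mt2 were higher at ZT12 (26.6%), and Cat, Sod1, Gclc and Gsta3 were lower (27.8%). Between ZT12 and ZT2 it was 3 of 9, with 45.9% of tested genes: Sod2, Gclc and Gsta3 were lower at ZT12 (22.3%), and 0 were higher (23.6%). The order of the time points differed between the genes, although 0 of the 9 passed the test. Cat and Sod1 had both ZT0 libraries above the other 4, as had 11.1% of tested genes, and Prdx1 and Mt2 had them below, as had 9.52%. Sod2 and Gsta3 had both ZT2 libraries on top (10.9% of tested genes), and Gclc and Gsta3 had both ZT12 libraries at the bottom (12.9%). In 0 of the 9 were both ZT2 libraries at the bottom (12.8%) or both ZT12 libraries on top (12.4%). The mean was highest at ZT0 for 2 genes, at ZT2 for 4 and at ZT12 for 3.

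The antioxidant response element, bound by NRF2 with small MAF proteins, and the metal response element, bound by MTF1, are the best known control sequences of these gene families. RefSeq windows of GRCm38.p6 were searched for them over the 250 bases before each start, on both strands. A window was given for 8 of the 9 genes, with a pair of starts for Gstm1, and Gclc had none. The core TGACNNNGC was found in 4 of the 9 windows of these genes, those of Gsta3, Prdx1, Sod1 and Mt2, and in 10.2% of all 32851 windows. The windows of Cat, Sod2, Gstm1 and Mt1 did not hold it. These stretches are shown with the match in capitals, on the strand of the gene and 5′ to 3′, to let the matches in these 4 genes be compared. In Prdx1 and Sod1 the core runs on the opposite strand.

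Gsta3 (chr1:21240453-21240483, + strand): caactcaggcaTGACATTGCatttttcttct

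Prdx1 (chr4:116685455-116685485, + strand): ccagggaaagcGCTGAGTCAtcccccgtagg

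Sod1 (chr16:90220695-90220725, + strand): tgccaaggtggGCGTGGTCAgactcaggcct

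Mt2 (chr8:94172528-94172558, + strand): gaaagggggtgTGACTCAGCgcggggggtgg

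The metal response core, searched as TGCACNC and TGCGCNC, was found in 4 of the 9 windows, those of Mt1, Mt2 and both starts of Gstm1, and in 21.4% of all windows. The window of Mt2 held 3 matches and that of Mt1 held 1, and the windows of Gstm1 held the same single match. In Mt1 the match lay 23 to 17 bases before the start. These counts depend on the start that RefSeq gives. Bases outside the windows, including those after the start, were not searched for either core, so a gene may hold more elements than counted here. The upstream window of Mt2 is shown whole, since it holds both kinds of core, which do not overlap there; they are in capitals.

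Mt2 (chr8:94172368-94172617, + strand): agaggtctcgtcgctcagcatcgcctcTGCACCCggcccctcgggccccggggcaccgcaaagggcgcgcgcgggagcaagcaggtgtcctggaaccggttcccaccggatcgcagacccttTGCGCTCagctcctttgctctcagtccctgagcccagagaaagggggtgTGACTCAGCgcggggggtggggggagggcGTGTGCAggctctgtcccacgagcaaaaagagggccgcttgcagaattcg

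The circadian E-box, CACGTG, was found in 0 of the 9 windows, and in 6.02% of all windows. A D-box pattern with its centre left free, TTANNTAA, was found in 1 of the 9 windows, that of Gsta3, and in 5.43% of all windows. The match read TTATCTAA, and with a free centre it need not be a D-box. Of the genes with the antioxidant core, Sod1 was highest at ZT0, Gsta3 at ZT2, and Prdx1 and Mt2 at ZT12 by their means. None of these genes passed the test between time points, and the ZT12 mean of Prdx1 was only 1.02 times that of ZT2. Whether the genes with this core share control was not tested. A match in these windows is a description of the letters, and the disome tables do not measure the activity of a promoter.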

How the data were processed

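The authors deposited 1 table of RPKM values per disome library, keyed by 8941 Ensembl identifiers. The submitters' processing notes name edgeR, StringTie, STAR, cutadapt, CASAVA (1.82) and Bowtie2 (2.3.0), and list mm10 and GRCm38.p2 as builds. What each tool did, how genes were filtered and how multi-mapped reads were treated is not given in the sources used here. Whole reads and gene lengths were recovered from the value steps (99.9% of genes directly, relative tolerance 5e-12); a factor shared by all 6 reads of a gene could leave them too low. They gave depth, counting intervals and 1 alternative.

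Values were tested as log2(RPKM + 1) with limma (3.58.1, under R 4.3.3) for the 8355 genes averaging 1 RPKM or more, all 9 members among them, with 1 mean per time point, a variance trend, 3 residual degrees of freedom and Benjamini-Hochberg adjustment over all genes tested. The code was tested on simulated data. Symbols come from the list that defines the group. The rule for named genes took all 10 members and any called companion pathway gene. The companion and cell type marker lists matched no identifier (the RefSeq table holds none) and were not used. The members and lists were chosen with earlier results of these data known. Alternatives were the pseudocount, filter, scaling, variance trend, libraries in the fit, replicate block, voom on recovered reads and each library left out.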

Additional observations from a re-analysis of the deposited data

How the results depend on the processing

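None of the 9 genes was called in any comparison by the main test, and Mt1 was the only one called in any alternative. For ZT12 against ZT0 this was 1 gene with only the 4 libraries compared in the fit. Leaving out each library in turn called 0 genes for ZT2 against ZT0 and 0 to 1 for each of the other comparisons. The count over all genes for ZT2 against ZT0 was 2; it was 6 at a pseudocount of 0.1, 1 without the variance trend, 1 on the 4 libraries alone, 9 with voom and 0 to 248 with each library left out. For ZT12 against ZT0 it was 79, with 124 at a filter of 5 RPKM, 32 without the trend, 282 on the 4 libraries, 283 with voom and 3 to 283 with each library left out. For ZT12 against ZT2 it was 172, with 80, 39, 356 and 5 to 597 without the trend, on the 4 libraries, with voom and with each library left out. The F test called 105 genes, 34 without the trend, 350 with voom and 5 to 612 with each library left out. With the replicate block the counts were 2, 51, 113 and 76, and 0 of the 9 genes were called; libraries with the same number shared only a number (correlations of deviations -0.08, -0.02 and 0.02). Where leaving out a library left 1 at a time point, its spread was taken from the other time points. For Mt1, the fits without a ZT2 library thus used the spread of the ZT0 and ZT12 libraries alone. Their calls for ZT12 against ZT0 are not separate from that of the fit on the 4 libraries. For ZT12 against ZT2 and the F test, the ZT2 level in such a fit came from 1 library alone. The cause of the changes in these counts was not tested.

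Of the values for single genes, 388 kept their direction and their side of the threshold, 4 gained a call, all for Mt1, and 13 changed sign, none of them called. With all libraries brought to an equal total, the all-gene median for ZT12 against ZT2 became 0.12 (main 0.03), and Sod2 became 0.020 and Gsta3 0.025 (ZT12 against ZT0) and Sod1 0.0083 (ZT12 against ZT2). The other sign changes came with 1 library left out, and the range over the libraries left out is given for each. For ZT2 against ZT0, Gstm1 was -0.13 (without ZT2 replicate 1) to 1.01 and Mt1 -0.87 (without ZT2 replicate 1) to 2.00. For ZT12 against ZT0, Sod2 was -0.22 to 0.073 (without ZT12 replicate 2). For ZT12 against ZT2, leaving out ZT2 replicate 1 gave one end of the ranges of Cat (-0.045 to 0.23), Sod1 (-0.20 to 0.011), Gstm1 (-0.81 to 0.33) and Mt1 (-0.54 to 2.33), and ZT2 replicate 2 the other. Prdx1 was -0.024 (without ZT2 replicate 2) to 0.072, and Mt2 was -0.049 (without ZT12 replicate 2) to 0.82, with -0.0037 without ZT2 replicate 2. Counting error is widest for Mt1 and Mt2, with 20 to 189 reads per library.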
